A study of Homo sapiens with 36 samples.

Results

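The 7 genes described here are autosomal and were at or near 0 counts in wild-type cells before neuronal differentiation, while being expressed in cells carrying RAI1 mutations: PUS7L, TYW3, CRYZ, ALG10, D21S2088E, LINC02693 and LINC01515. They are 7 of the 62710 genes in the deposited tables, and they were selected on their day 0 counts, so day 0 values are given as a description with no test. Days 3 and 7 were measured in other libraries. The study used the human embryonic stem cell line H9, an established line, as 3 genotypes labelled WT, RAI1 Het (HET) and RAI1 Knockout (KO). In all of them neurons were induced by doxycycline-dependent expression of NGN2, a proneural transcription factor, in Neurobasal-A with GlutaMAX, B27, GDNF, NT3 and CultureOne. Cells were taken before induction (day 0) and on days 3 and 7, with 4 biological replicates in each of the 9 groups, 36 libraries in all. Total RNA depleted of ribosomal RNA was sequenced. The cell type label reads iNeuron in every group, day 0 included. The labels do not say how many clones stand behind a genotype, so genotype and clonal origin cannot be told apart, and p-values measure the spread between these replicates.

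The members fall into several kinds of product. PUS7L belongs to the pseudouridine synthases, enzymes that turn uridine in RNA into its isomer pseudouridine. TYW3 is a methyltransferase in the pathway that builds wybutosine, a bulky modified guanosine beside the anticodon of phenylalanine transfer RNA that helps keep the reading frame. CRYZ is zeta-crystallin, an NADPH-dependent quinone reductase that also serves as a lens protein in some mammals and binds AU-rich RNA. ALG10 is the glucosyltransferase that places the last glucose on the lipid-linked oligosaccharide from which N-glycans are transferred to proteins. D21S2088E, LINC02693 and LINC01515 are long non-coding RNA genes. RAI1, the mutated gene, encodes a chromatin-associated regulator whose loss in people causes Smith-Magenis syndrome.

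Library totals ran from 23948079 to 56678796 counts. The signal recognition particle RNAs RN7SL1 and RN7SL2, with RN7SK, RMRP and RPPH1, made up 2.84 to 27.5% of a library, with the highest share in HET day 7 replicate 1. RAI1 itself was not lower in the mutants: its normalised CPM (each library's counts brought to 1 common library size, as CPM, with edgeR's TMM scaling over the 36 libraries) averaged 33.5 in WT, 38.4 in HET and 37.0 in KO at day 0, and 52.2, 73.2 and 84.9 at day 7. At day 7 RAI1 was called higher in KO than in WT, by 0.69 on the log2 scale (edgeR adjusted p = 0.0296). In HET that day the difference was 0.48 and was not called (edgeR adjusted p = 0.168), nor was RAI1 called at day 0 or day 3. A gene-level count does not check a mutation that leaves the transcript in place, so the genotype names below are those of the labels. Pluripotency markers (7 genes) summed to 2374 to 5387 CPM in the day 0 libraries. At day 7 they summed to 67.9 to 108 in WT, 103 to 202 in HET and 290 to 357 in KO. The single markers did not all follow that order. At day 7 POU5F1 and TDGF1 had at most 3 counts in every KO library. NANOG and TDGF1 did so in every WT library, and L1TD1 and TDGF1 in every HET library. The 8 neuronal markers summed at day 3 to 1331 to 1638 in WT, 1827 to 4627 in HET and 4736 to 7808 in KO.

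In GENCODE 29 coordinates (build GRCh38), TYW3 (chr1:74733152-74766678, plus strand) and CRYZ (chr1:74705482-74733408, minus strand) lie head to head, with gene bodies that overlap by 257 bases. Reads from the overlap cannot be told apart, because the strand setting of the counting is not given in the sources used here. PUS7L (chr12:43718993-43758817, minus strand) lies head to head with IRAK4 (chr12:43758944-43789543, plus strand), a kinase of Toll-like and interleukin-1 receptor signalling that is not among the 7. ALG10 (chr12:34022281-34029694, plus strand) has a close copy, ALG10B (chr12:38316578-38329728, plus strand), on the other arm of the same chromosome. D21S2088E lies at chr21:23361104-23384861 (minus strand) and LINC01515 at chr10:65570338-65768835 (plus strand). LINC02693 lies at chr17:21428381-21574517 (minus strand), 3.62 Mb from RAI1, and is annotated there as the protein-coding gene C17orf51.

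The start regions differed in their content of CG dinucleotides, the target of DNA methylation in mammals. The 126 bases between PUS7L and IRAK4 (chr12:43758818-43758943, plus strand) are shown because both genes start from them. They hold 11 CG, printed in capitals, at 65.1% G and C, and no GENCODE exon. The 250 bases before the RefSeq start of LINC01515 (chr10:65571175-65571424, plus strand) are shown as the contrast, with 1 CG and 40% G and C. GENCODE places that stretch inside an exon of a longer LINC01515 transcript.
PUS7L to IRAK4: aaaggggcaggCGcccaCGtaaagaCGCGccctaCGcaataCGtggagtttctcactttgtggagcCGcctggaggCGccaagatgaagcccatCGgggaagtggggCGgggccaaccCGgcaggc
LINC01515 upstream: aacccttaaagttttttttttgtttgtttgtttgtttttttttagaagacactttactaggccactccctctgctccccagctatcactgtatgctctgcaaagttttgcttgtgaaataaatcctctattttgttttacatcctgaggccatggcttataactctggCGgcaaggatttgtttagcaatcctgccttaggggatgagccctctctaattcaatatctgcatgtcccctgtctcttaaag
The motif CG reads the same on both strands. In RefSeq promoter windows of 250 bases before to 50 after a start, the median of 35116 windows was 14 CG. The CRYZ window, which also covers the TYW3 start, held 17 CG, and 46% of all windows held at least as many. The IRAK4 window held 28 CG, matched or exceeded by 26.2% of windows, and the LINC01515 window held 3, matched or exceeded by 81.8%. The promoter table held 2 of the 7 members.

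The choice, near 0 counts in WT and expression in KO or HET at day 0, fixed a gap to WT in KO or in HET. At day 0 every KO and HET library was above every WT library for each member. All 7 kept that order at day 3 and at day 7 (the plot of normalised CPM by library). At day 3 the 7 were called higher in KO than in WT and the 7 in HET than in WT, and the same held at day 7, with edgeR's quasi-likelihood test and Benjamini-Hochberg adjusted p under 0.05. Of all genes tested, 12.6% were called higher in KO and 2.52% in HET at day 3, and 17% and 8.31% at day 7. With the replicate number as a block, on which same-numbered WT and mutant libraries of day 3 deviated together, the day 3 shares were 19.4% and 5.73%, and the 7 members were called there too. Every mutant library lay above every WT library for 3.36% of genes at day 3 and 6.02% at day 7, against 1.89% at day 0. Members near 0 counts in WT pass the filter on low counts through their mutant libraries, so these counts of 7, and the p-values against WT given below, describe the members and are no support for the choice. With genes at 0 in WT held at their lower bound, the median fold of the 7 was 466 in KO and 321 in HET at day 3 (8.86 and 8.33 on the log2 scale), beside a log2 median of -0.05 and 0.02 over all genes tested. These bulk libraries do not separate fewer cells of a type from less RNA per cell.

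**Figure D1:**
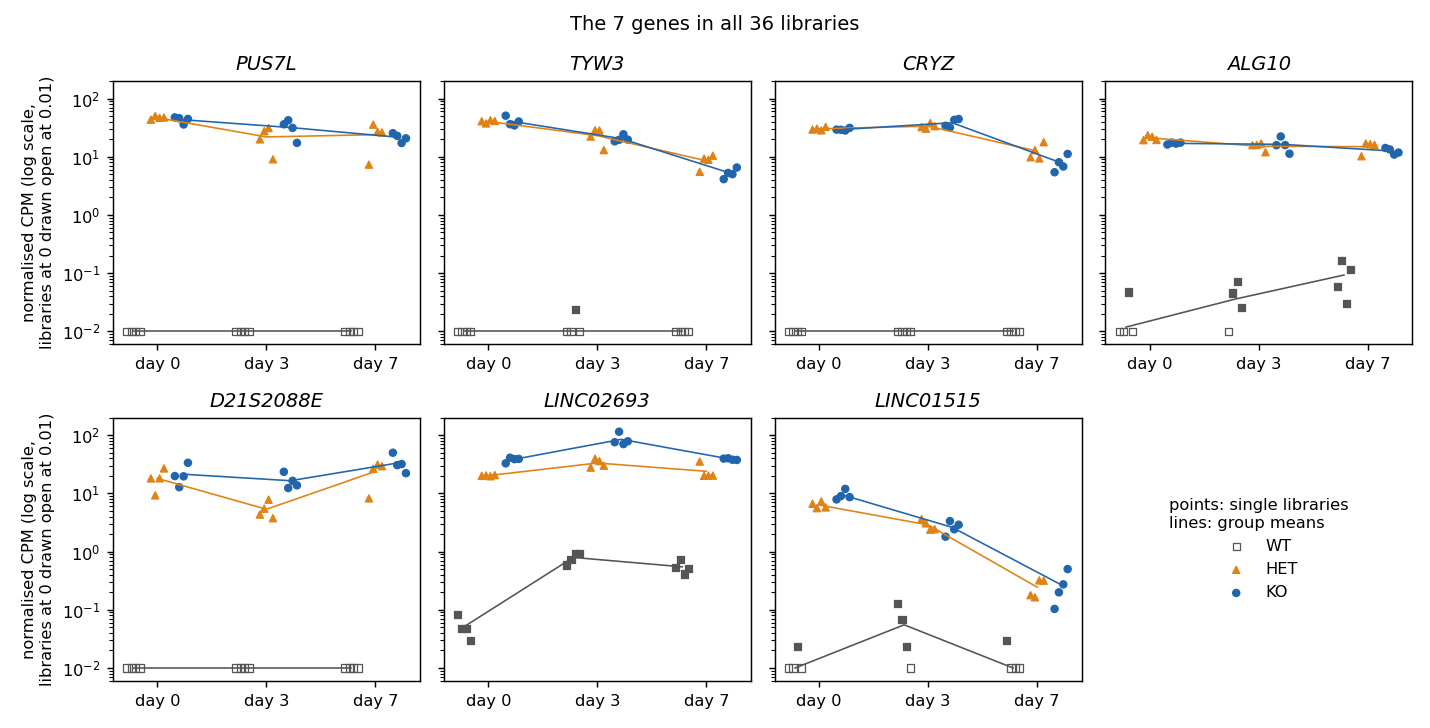
Normalised CPM of each member on a logarithmic axis, by genotype and day, with 1 point per library and lines that join the group means. WT libraries of PUS7L, CRYZ and D21S2088E sit at 0 on all 3 days, and no mutant library of any member reaches down to the WT libraries of its day.

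PUS7L stayed at 0 counts in all 12 WT libraries, through the change from stem cell to neuron. At day 0 it was at 43.4, 50.05, 46.6 and 47.3 normalised CPM in the HET libraries and at 47.4, 45.9, 35.9 and 44.6 in KO. At day 3 the HET libraries had 19.9, 27.5, 31.2 and 9.04 and the KO libraries 36.1, 42.4, 31.3 and 17.3. Replicate 4 was the lowest of both mutant groups that day, and the groups overlapped. At day 7 the HET libraries had 7.32, 35.6, 26.7 and 26.1, replicate 1 being the one with the high structural RNA share, and the KO libraries had 25.4, 22.8, 17.2 and 20.7. With 3 counts per WT library as the most that a count of 0 allows, PUS7L was at least 466-fold higher in KO and at least 321-fold higher in HET at day 3 (edgeR adjusted p = 3.02e-06 and 6.25e-06). The day 7 bounds were 271-fold in KO and 301-fold in HET (edgeR adjusted p = 1.09e-05 and 1.55e-05).

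IRAK4, across the 126 bases printed above, was also at 0 counts in the 4 WT libraries of day 0 and of day 3, and had 2, 4, 0 and 2 counts at day 7. In the mutants its normalised CPM was low at day 0, at 2.77 to 3.98 in KO and 2.94 to 3.38 in HET. It was higher in every mutant library of day 3, at 11.1 to 14.8 in KO and 7.06 to 12.5 in HET. Its difference from WT at day 3 was at least 193-fold in KO and 158-fold in HET (edgeR adjusted p = 1.19e-07 and 1.41e-07), and IRAK4 was called in both at day 7 too. IRAK4 also passed the filter on low counts through its mutant libraries, so these p-values describe it and are no support for a state shared with PUS7L. By its counts the pair had the same on and off groups while its time courses ran differently. Per length, in deposited FPKM, IRAK4 stood at 0.160 ± 0.0808 of PUS7L in the day 0 KO libraries, 1.19 ± 0.245 on day 3 and 1.09 ± 0.225 on day 7 (SD, n = 4). In HET the ratio was 0.157 ± 0.0238, 1.10 ± 0.362 and 1.40 ± 0.927. No day 0 ratio in the mutants overlapped those of day 3 or day 7. IRAK4 is not among the members, and its mean mutant level at day 0 was lower than that of any of them.

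TYW3 was at 0 counts in 11 of 12 WT libraries and at 1 count in the other, a day 3 library. At day 0 the HET libraries had 40.7, 37.4, 42.5 and 41.1 normalised CPM and the KO libraries 50.8, 36.2, 34.5 and 40.3. At day 3 they had 22.2, 28.5, 28.4 and 13.02 in HET and 18.4, 19.5, 24.3 and 19.7 in KO, and at day 7 5.51, 9.28, 8.86 and 10.4 in HET and 4.12, 5.27, 5.01 and 6.52 in KO. The days did not overlap within either mutant genotype. At day 7 TYW3 was at least 65.7-fold higher in KO and 107-fold higher in HET than in WT (edgeR adjusted p = 2.37e-06 and 1.45e-06). At day 3 the single WT count put the ratio at 3632 in KO (exact 95% interval 651 to 143503) and 4295 in HET (770 to 169694), intervals that cover counting error alone, with edgeR adjusted p = 1.28e-08 and 1.01e-08. On log2(TPM + 1) with limma, where low genes are compressed, the day 7 KO difference of TYW3 was 0.92 and was not called (limma adjusted p = 0.105, over the other settings at most 0.000331).

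CRYZ, the head-to-head partner of TYW3, was at 0 counts in all 12 WT libraries. At day 0 it was at 29.3, 30.4, 28.4 and 32.5 normalised CPM in HET and at 29.3, 29.1, 28.3 and 31.3 in KO. At day 3, when TYW3 had dropped, CRYZ stood at 32.3, 30.4, 38.0 and 33.6 in HET and 34.1, 31.8, 43.1 and 44.5 in KO. By day 7 it had come down to 9.79, 13.01, 9.37 and 17.8 in HET and 5.41, 8.04, 6.79 and 11.2 in KO, below every earlier library. CRYZ was at least 562-fold higher in KO and 492-fold in HET than in WT at day 3 (edgeR adjusted p = 1.28e-08 and 1.01e-08), and at least 98.6-fold and 157-fold at day 7 (edgeR adjusted p = 3.74e-06 and 3.45e-06). Per length, in deposited FPKM, CRYZ stood at 1.24 ± 0.245 times TYW3 in the day 0 KO libraries, 2.89 ± 0.480 on day 3 and 2.66 ± 0.360 on day 7 (SD, n = 4). In HET the ratio was 1.36 ± 0.105, 2.16 ± 0.404 and 2.56 ± 0.866.

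**Figure D2:**
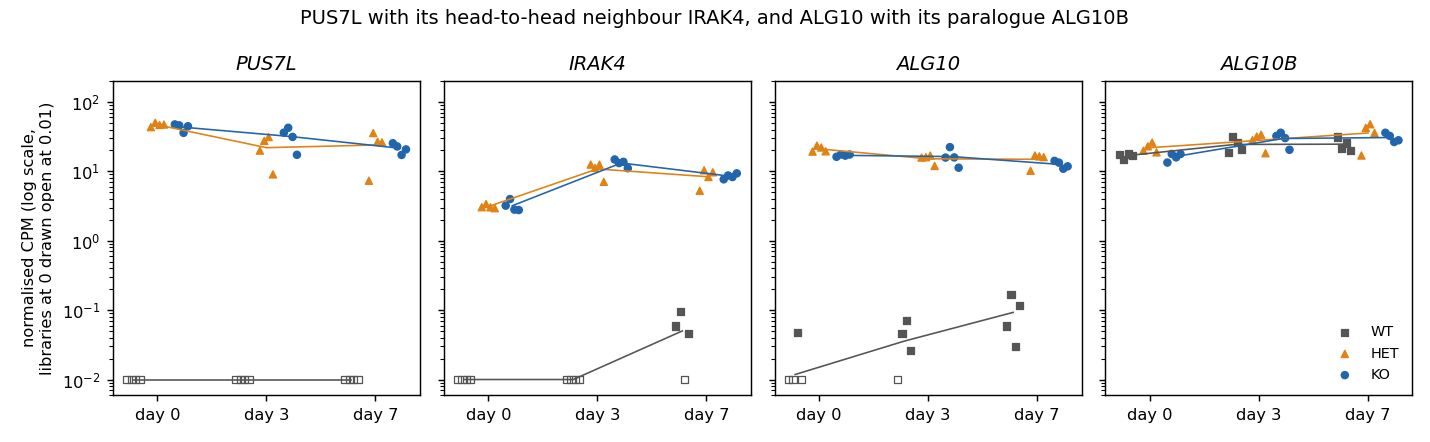
Normalised CPM on a logarithmic axis of PUS7L with IRAK4, which lies head to head with it, and of ALG10 with its copy ALG10B, by genotype and day. Points are single libraries and lines join the group means. PUS7L is at 0 in the WT libraries of all 3 days, and ALG10B is expressed in WT on each day.

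ALG10 had few WT counts rather than none: 0, 0, 2 and 0 at day 0, 0, 2, 3 and 1 at day 3, and 2, 7, 1 and 5 at day 7. Of the 4 protein-coding members it lost the least of its mutant level by day 7. HET libraries had 19.3, 23.5, 22.1 and 19.4 normalised CPM at day 0, 15.8, 15.97, 16.9 and 11.95 at day 3, and 10.2, 16.9, 16.4 and 16.03 at day 7. KO libraries had 16.2, 17.5, 16.8 and 17.5, then 15.8, 22.3, 15.9 and 11.3, then 14.1, 13.4, 10.9 and 11.8. Days overlapped between day 3 and day 7 in both genotypes. ALG10 was 492-fold (exact 95% counting interval 226 to 1341) higher in KO and 461-fold (211 to 1257) in HET at day 3 than in WT, with edgeR adjusted p = 4.97e-08 and 5.40e-08. At day 7 the ratios were 128 (77.7 to 230) and 150 (90.9 to 269), with edgeR adjusted p = 2.13e-07 and 2.09e-07.

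ALG10B, which makes the same kind of enzyme, was expressed in WT at 14.8 to 17.7 normalised CPM at day 0. It was called in no genotype comparison at day 3 or day 7; its day 7 mean was 24.6 in WT libraries, 35.7 in HET and 30.7 in KO. The coding sequences of ALG10 and ALG10B (the first GENCODE transcript of each) are 97.7% identical (1386 of 1419 bases, no gaps), and bases 1277 to 1336 are shown because they hold 5 of the 33 differences, in capitals.
ALG10: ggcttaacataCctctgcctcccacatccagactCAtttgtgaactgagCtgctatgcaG
ALG10B: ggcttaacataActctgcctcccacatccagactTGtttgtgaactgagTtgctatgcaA
Of the 4536 stretches of 151 bases, the read length, along ALG10 transcripts, 31 (0.683%) also occur in another gene, all in ALG10B. LINC02693 shared 68 of 15622 such stretches (0.435%), and the other 5 members shared none. Per length, ALG10 stood at 1.84 times ALG10B in KO and 2.14 times in HET at day 0, against 0.000969 in WT. The mutant ratios were 1.199 and 1.16 at day 3 and 0.932 and 1.08 at day 7. With the counts of the 2 copies summed as 1 gene, the HET difference at day 3 was 0.83 on the log2 scale and was not called (edgeR adjusted p = 0.0524; the other settings gave at most 0.0562).

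D21S2088E was at 0 counts in all 12 WT libraries and followed another course in the mutants. At day 0 it was at 18.1, 9.27, 18.2 and 26.9 normalised CPM in HET and 19.9, 12.8, 19.7 and 33.6 in KO, with replicate 2 lowest and replicate 4 highest in both. At day 3 HET had 4.34, 5.47, 7.83 and 3.76, and KO had 23.6, 12.4, 16.5 and 13.8, so every HET library was below every KO library. At day 7 HET had 8.24, 26.6, 31.4 and 29.4 and KO had 50.1, 30.6, 32.0 and 22.3. Against WT it was at least 243-fold higher in KO and 78.4-fold in HET at day 3 (edgeR adjusted p = 7.39e-07 and 2.99e-06), and at least 424-fold and 300.2-fold at day 7 (edgeR adjusted p = 9.09e-06 and 1.74e-05).

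LINC02693 was the member with a measurable WT level after induction. WT libraries had 3, 2, 2 and 1 counts at day 0, 32, 32, 39 and 36 at day 3 (0.590 to 0.936 normalised CPM), and 18, 31, 14 and 22 at day 7 (0.414 to 0.734). In HET the libraries had 20.1, 20.4, 19.8 and 20.7 at day 0, 27.8, 39.5, 36.003 and 30.0 at day 3, and 35.3, 20.1, 20.3 and 20.3 at day 7. In KO they had 32.9, 41.1, 38.9 and 39.2, then 75.8, 115, 70.5 and 78.8, then 39.7, 40.3, 38.0 and 37.7. All 3 genotypes were thus highest on average at day 3, and every KO library was above every HET library on each day, as for 1.63%, 6.79% and 4.49% of all genes on days 0, 3 and 7. LINC02693 was 111-fold (exact 95% counting interval 93.9 to 132) higher in KO and 43.4-fold (36.6 to 51.7) in HET than in WT at day 3, with edgeR adjusted p = 5.55e-09 and 1.01e-08. At day 7 the ratios were 70.1 (56.6 to 87.8) and 43.9 (35.4 to 55.1), with edgeR adjusted p = 5.65e-08 and 1.92e-07.

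LINC01515 nearly vanished by day 7 in the mutants too. WT libraries had 0, 0, 1 and 0 counts at day 0, 7, 3, 1 and 0 at day 3, and 1, 0, 0 and 0 at day 7. HET libraries had 6.66, 5.59, 7.30 and 5.75 normalised CPM at day 0, 3.63, 3.07, 2.39 and 2.43 at day 3, and 0.179, 0.164, 0.321 and 0.317 at day 7. KO libraries had 7.90, 9.003, 11.97 and 8.64, then 1.80, 3.35, 2.42 and 2.90, then 0.104, 0.200, 0.274 and 0.502. At day 7 these rest on 7, 6, 13 and 8 counts in HET and 4, 8, 10 and 16 in KO. The day 3 ratio to WT was 42.9 (exact 95% counting interval 23.7 to 86.5) in KO and 46.5 (25.8 to 93.9) in HET, with edgeR adjusted p = 2.19e-05 and 3.85e-05. At day 7 it was 39.5 (6.67 to 1599) and 36.7 (6.16 to 1492), with edgeR adjusted p = 0.00130 and 0.00461. On log2(TPM + 1), which compresses such low levels, limma did not call either day 7 difference of LINC01515, at 0.16 in KO and 0.18 in HET.

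Fewer genes were called on the deposited TPM. In limma on log2(TPM + 1), 0.181% of all genes were called in HET against WT at day 3, in place of 3.28%, and 2 of the 7 members (TYW3 and CRYZ) were called there. PUS7L, ALG10, D21S2088E, LINC02693 and LINC01515 kept their direction there, at 1.04 to 2.08 on that scale. With a pseudocount of 0.1 the 7 were called, beside 0.492% of all genes.

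Per length, the members did not hold 1 order over time. CRYZ was the highest at day 0 and day 3 in both mutant genotypes, at 22.6 ± 0.951 and 25.8 ± 3.54 FPKM in KO and 23.3 ± 1.22 and 23.4 ± 1.302 in HET (SD, n = 4). At day 0 in KO the next, TYW3, overlapped it, and in HET it did not. At day 3 no other member overlapped CRYZ in either genotype. At day 7 D21S2088E led, at 20.5 ± 8.02 FPKM in KO and 15.4 ± 7.39 in HET, overlapping no member in KO, while in HET its lowest library, at 4.53, lay within or below those of CRYZ, ALG10, LINC02693, PUS7L and TYW3. LINC01515 was the lowest at day 3 and day 7, and at day 7 it lay below every library of the next lowest, TYW3, in both genotypes. In WT the highest member was LINC02693 on each day, at 0.0375, 0.463 and 0.203 FPKM.

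**Figure D3:**
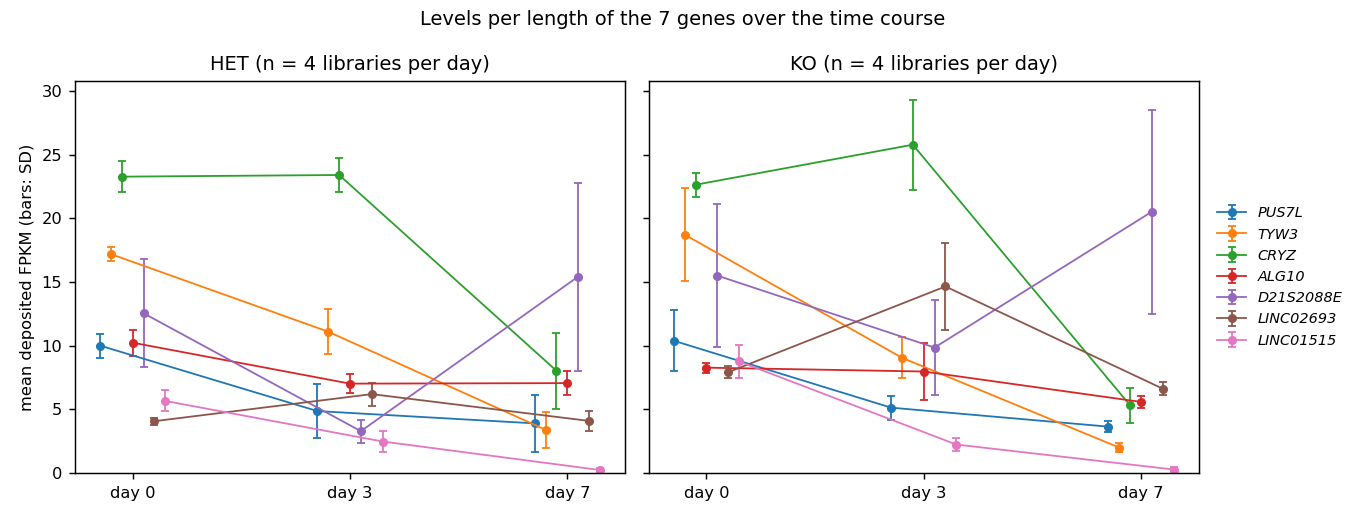
Mean deposited FPKM of each member at days 0, 3 and 7 in HET and KO, with bars of 1 SD over 4 libraries. CRYZ leads at days 0 and 3 in both mutant genotypes and D21S2088E at day 7.

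KO and HET, which differ in the label for RAI1 dose, were then compared on days 3 and 7. At day 3, 2 of 7 members were called, both higher in KO, beside 4.35% of all genes called (2.77% higher). D21S2088E was higher in KO by 1.60 on the log2 scale (SE 0.29, edgeR adjusted p = 0.0142) and LINC02693 by 1.31 (SE 0.19, edgeR adjusted p = 0.00189), and in both every KO library was above every HET library, as for 6.79% of all genes. The other 5 were not called: PUS7L by 0.51 (SE 0.36), TYW3 by -0.20 (SE 0.25), CRYZ by 0.15 (SE 0.17), ALG10 by 0.06 (SE 0.27) and LINC01515 by -0.18 (SE 0.39), log2 KO minus HET. Without HET day 3 replicate 1 the D21S2088E difference was 1.52 with edgeR adjusted p = 0.0623, over the other 7 fits that left out 1 library at most 0.0408. On log2(TPM + 1) and log2(TPM + 0.1) limma called neither gene, with the same directions, where it called 0.181% and 0.436% of all genes. With the replicate block 12.7% of all genes were called, and the same 2 members. The groups also differed that day in markers: NEUROG2, the induced factor, averaged 15995 normalised CPM in HET and 8961 in KO, and the neuronal marker sums did not overlap. NEUROG2 averaged 22293 in WT that day. It was lower in KO than in WT on days 0, 3 and 7 (edgeR adjusted p = 0.000168, 0.000526 and 0.000925). In HET it was not called against WT on any day (edgeR adjusted p = 0.0711, 0.326 and 0.756). The part of NEUROG2 and of the neuronal markers in the results was not tested.

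At day 7 no member was called between KO and HET by edgeR or by DESeq2, beside 1.4% of all genes called by edgeR. At an unadjusted edgeR p under 0.05 there were 3 of 7 members and 13.9% of all genes. LINC02693 was higher in KO by 0.69 (SE 0.21, edgeR adjusted p = 0.149), TYW3 stood at -0.70 (SE 0.26, edgeR adjusted p = 0.270) and CRYZ at -0.67 (SE 0.29, edgeR adjusted p = 0.355). Leaving out HET day 7 replicate 1, in which LINC02693 was 35.3 against 20.1 to 20.3 in the other 3, gave a called difference of 0.93 (edgeR adjusted p = 0.00543, over the other 7 such fits up to 0.374). The remaining differences were -0.15 (SE 0.38) for PUS7L, -0.25 (SE 0.25) for ALG10, 0.50 (SE 0.38) for D21S2088E and 0.13 (SE 0.55) for LINC01515. Intervals of that width leave room for sizeable differences, so equal levels were not shown.

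**Figure D4:**
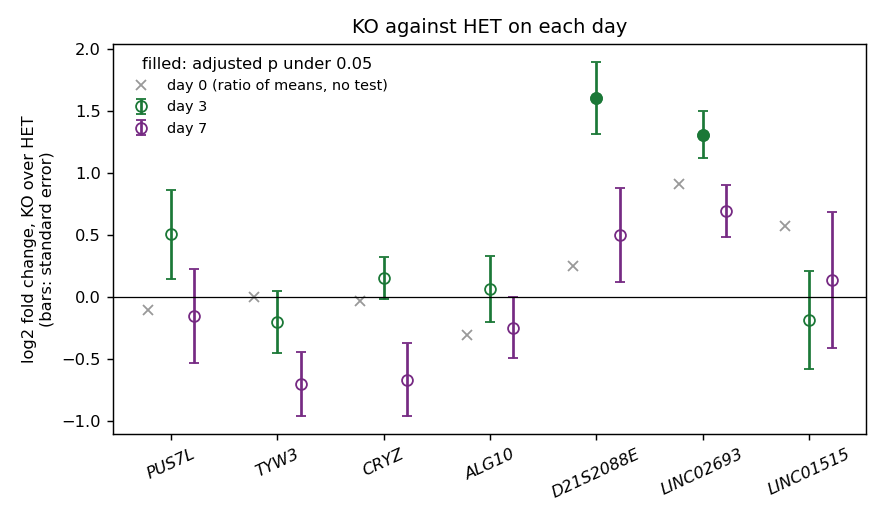
Log2 difference KO minus HET of each member at day 3 and day 7 from edgeR, with bars of 1 SE and filled points where the adjusted p was under 0.05. Crosses give the log2 ratio of the day 0 means, with no test. D21S2088E and LINC02693 are filled at day 3 and no member at day 7.

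From day 0 to day 3 the mutant levels split, given here as values with no test. Mean TYW3 at day 3 was 0.506 times its day 0 level in KO and 0.569 times in HET, while CRYZ, from the same start region, was at 1.302 and 1.11 times. D21S2088E was at 0.770 times in KO and 0.295 in HET, and LINC02693 at 2.24 and 1.65 times. WT LINC02693 went to 15.4 times its near-zero day 0 level.

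From day 3 to day 7, 5 of 7 members were called in KO, 1 higher and 4 lower, where 47.8% of all genes were called (24.3% higher, 23.6% lower). In HET 4 were called, 1 higher and 3 lower, where 41.2% of genes were (20.8% higher, 20.5% lower). TYW3 fell by 1.93 on the log2 scale in KO (SE 0.17, edgeR adjusted p = 8.63e-07) and by 1.43 in HET (SE 0.24, edgeR adjusted p = 0.000380). CRYZ fell by 2.25 in KO (SE 0.20, edgeR adjusted p = 8.59e-07) and by 1.43 in HET (SE 0.19, edgeR adjusted p = 8.20e-05). LINC01515 had the steepest course of the members, with -3.25 in KO (SE 0.37, edgeR adjusted p = 7.48e-06) and -3.55 in HET (SE 0.31, edgeR adjusted p = 2.14e-06). D21S2088E went the other way and rose by 1.07 in KO (SE 0.31, edgeR adjusted p = 0.0106) and 2.16 in HET (SE 0.41, edgeR adjusted p = 0.000987).

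The remaining members moved less between days 3 and 7. LINC02693 fell by 1.08 in KO (SE 0.14, edgeR adjusted p = 2.87e-05), and its value in HET was -0.47 (SE 0.20, edgeR adjusted p = 0.0741). Without HET day 7 replicate 1 that HET value was -0.73 and called, with edgeR adjusted p = 0.000778, over the other 7 such fits up to 0.192. PUS7L stood at -0.51 in KO (SE 0.22, edgeR adjusted p = 0.0674) and 0.14 in HET (SE 0.40), and ALG10 at -0.33 (SE 0.17, edgeR adjusted p = 0.138) and -0.02 (SE 0.18). Without KO day 3 replicate 4, the lowest of its group for both genes, PUS7L at -0.71 and ALG10 at -0.47 were called in KO, and PUS7L was also called with library size alone (-0.66) and with no filter on low counts (-0.57). In WT LINC02693 was the 1 member with enough counts to test, at -0.52 (SE 0.31, edgeR adjusted p = 0.184), where 46.2% of all genes were called. On log2(TPM + 1) and log2(TPM + 0.1) limma did not call the HET falls of TYW3 and CRYZ or the KO rise of D21S2088E, where it called 11.9% and 14.2% of all genes in HET and 20.4% and 24.8% in KO. Fibroblast-like markers summed at day 7 to 19.4 to 27.8 CPM in WT, 0.715 to 26.5 in HET and 0.137 to 1.37 in KO, and the neuronal marker sums of day 7, 5453 to 14352 over the genotypes, did not overlap those of day 3 within a genotype. Their part in these changes was not tested.

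**Figure D5:**
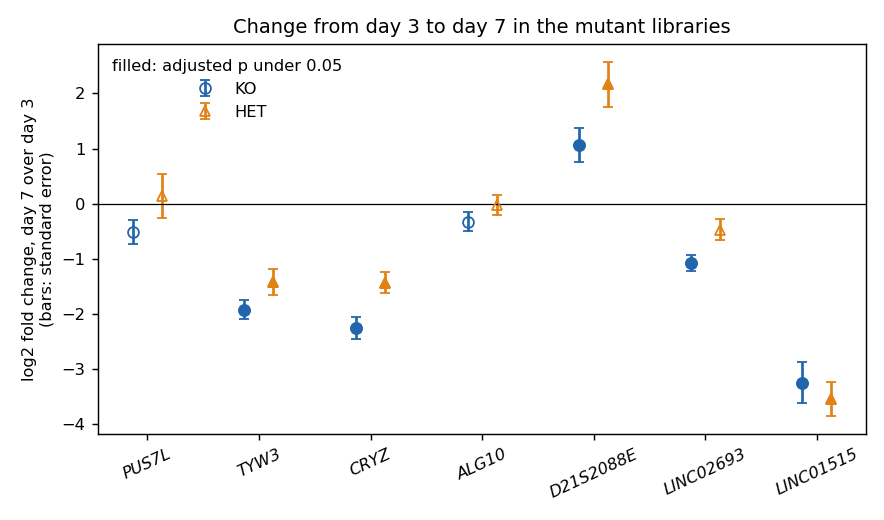
Log2 change from day 3 to day 7 of each member in KO and HET from edgeR, with bars of 1 SE and filled points where the adjusted p was under 0.05. TYW3, CRYZ and LINC01515 are lower and D21S2088E is higher at day 7 in both genotypes.

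Whether that change differed between KO and HET was tested as an interaction, and no member was called, beside 2.26% of all genes. The difference of the changes, KO minus HET, was -0.79 for CRYZ (SE 0.28, unadjusted p = 0.00911, edgeR adjusted p = 0.143), -0.58 for LINC02693 (SE 0.24, unadjusted p = 0.0224, edgeR adjusted p = 0.222) and -1.07 for D21S2088E (SE 0.53, edgeR adjusted p = 0.330). Without KO day 7 replicate 4 the CRYZ value was -1.08 and was called (edgeR adjusted p = 0.0287, over the other 15 such fits up to 0.240). From day 0 to day 7 as means, LINC01515 lost 97.1% of its level in KO and 96.1% in HET, TYW3 87.1% and 78.9%, CRYZ 73.4% and 58.6%, PUS7L 50.4% and 48.8%, and ALG10 26.2% and 29.3%.

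Few other genes of the members' pathways were called before day 7. Of 12 other pseudouridine synthases none was called at day 0 or day 3 in any comparison. At day 7 in KO against WT 3 rose and 1 fell, where 32.6% of all genes were called: TRUB1 by 0.73, TRUB2 by 0.42 and PUS1 by 0.60 (edgeR adjusted p = 0.0241, 0.0272 and 0.0328), all enzymes that make pseudouridine in transfer RNA or messenger RNA. Of 6 other wybutosine pathway genes, 2 were called, both at day 7 in KO: LCMT2, which acts near the end of the pathway, rose by 0.90 (edgeR adjusted p = 0.0165) and TYW1B stood at -0.84 (edgeR adjusted p = 0.0314). Of 21 genes that assemble the lipid-linked oligosaccharide, DPM1 and DPM2, subunits of the enzyme that makes the mannose donor, fell at day 3 in KO by 0.79 and 0.57 (edgeR adjusted p = 0.0227 and 0.0328), beside 21.6% of all genes called. The mannosyltransferase ALG12 fell by 0.50 at day 7 (edgeR adjusted p = 0.0333).

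Another list joined quinone reductases with relatives of CRYZ, with 11 genes tested. In KO at day 3, 2 of them were higher and 1 (TP53I3, at -0.64) lower, beside 21.6% of all genes called. In KO at day 7, 3 were higher and 1 lower, beside 32.6% of all genes called. VAT1L was higher in KO on all 3 days, by 0.60, 2.71 and 3.94 on the log2 scale (edgeR adjusted p = 0.0281, 0.000530 and 0.000406). In HET VAT1L was higher by 1.90 at day 3 and 2.42 at day 7 (edgeR adjusted p = 0.0210 and 0.0113). VAT1 was higher in KO at day 3 by 1.03 (edgeR adjusted p = 0.00415). PTGR1, a prostaglandin and alkenal reductase, was lower in KO at day 7 than in WT (-3.03, edgeR adjusted p = 0.000286) and than in HET (-1.92, edgeR adjusted p = 0.0363). Over the 50 tested genes of the 4 lists, 5 (10%) were called in KO at day 3 and 11 (22%) at day 7, shares below the 21.6% and 32.6% of all genes, and 1 (2%) was called in HET on each of these days. Scaling by library size alone, in place of TMM, gave 7 in KO and 2 in HET at day 7.

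Near the members, the state of a gene often differed from that of its neighbour. Counting the 3 nearest tested genes on each side, 6 of 36 (16.7%) were called between KO and WT at day 0 and 4 (11.1%) between HET and WT, beside 2.08% and 1.63% of all genes. At day 3 the counts were 11 (30.6%) and 4 (11.1%), beside 21.6% and 3.28% of all genes, and at day 7 19 (52.8%) and 10 (27.8%), beside 32.6% and 14.4%. Leaving out 1 library moved the share of all genes called in HET to between 1.74% (HET replicate 3 left out) and 6.43% (its replicate 4 left out) at day 3. On day 7 that share ran from 7.63% (HET replicate 3 left out) to 34.6% (its replicate 1 left out). With the replicate block the shares of all genes were 4.7% in KO and 3.37% in HET at day 0, and 37.7% and 8.79% at day 3. KO differed from HET in 0, 3 and 1 of the 36 on the 3 days, with 0.856% of all genes called at day 0. Neighbours of 1 region share their surroundings, and TYW3 and CRYZ share most of theirs, so these are not independent genes. IRAK4, SYT10 and ENSG00000256538 were at 0 counts in every WT library of day 0 and passed the filter on low counts through their mutant libraries. Their calls and p-values against WT describe them, and the neighbour counts that include them are no support for a state shared with the members.

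Beside IRAK4, the neighbours at 0 counts in WT were on the short arm of chromosome 12 near ALG10. ENSG00000256538, 7744 bases away, was at 0 in the WT libraries of days 0 and 3 and averaged 0.218 normalised CPM in KO and 0.355 in HET at day 0. SYT10, a synaptotagmin 582462 bases away, was at 0 in WT and averaged 2.72 in KO and 3.04 in HET at day 0, then 0.311 in KO at day 3 (edgeR adjusted p = 0.0231). TWF1, the gene after IRAK4, was at 44.4 in KO and 44.9 in WT at day 0. CTNNA3, an alpha-catenin 143683 bases from LINC01515, averaged 6.84 in KO and 8.14 in HET against 3.75 in WT at day 0 (edgeR adjusted p = 0.0213 and 0.00474). At day 0 SLC44A5 and ENSG00000230863, beyond TYW3, were lower in KO, at 4.03 against 8.05 and 0.295 against 1.11.

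Later in the time course several of the neighbours that changed had a WT level of their own. LRRTM3 and, at day 7, TMEM117 were low in WT. LRRTM3, a synaptic adhesion gene 1157171 bases from LINC01515, averaged 36.03 normalised CPM in KO at day 3 against 0.157 in WT and 0.199 in HET, and 7.61, 0.213 and 1.12 at day 7. It was called against both at both days. NCAM2, a neural adhesion gene 1817775 bases from D21S2088E, averaged 115 in KO and 50.03 in HET against 2.77 in WT at day 7. KCNJ12, a potassium channel gene 8509 bases from LINC02693, was higher in KO at day 3 (9.86 against 3.43 in WT and 3.20 in HET) and lower at day 7 in KO and HET (23.4 and 19.2 against 47.3). ERICH3, 59414 bases from TYW3, also turned, from 5.76 against 0.799 in WT at day 3 in KO to 0.763 in KO and 1.22 in HET against 7.92 at day 7. TMEM117 near PUS7L was lower in KO at day 3 (0.120 against 1.24) and higher at day 7 (1.009 against 0.133).

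The other neighbours called on at least 1 day were ADAMTS20, PRICKLE1, CHODL, KIF21A, DNM1L and ENSG00000228566, which were higher in at least 1 mutant group, and CPNE8, FPGT-TNNI3K, REEP3, RPL7AP50 and ENSG00000224493, which were lower. NATD1 was higher in KO at day 3 and lower in KO and HET at day 7. PKP2 was higher in HET at day 3 and lower in KO at day 7. Of these, KIF21A, a kinesin gene, had the highest level, at 182 in KO and 134 in HET against 56.7 in WT at day 7.

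Over the 36 libraries most members' profiles were alike, which the choice on genotype at day 0 favours. Pearson's r of log2(CPM + 1) between members ran from 0.539 (D21S2088E with LINC01515) to 0.990 (PUS7L with ALG10), a description over libraries that share genotype and day. LINC01515 was less like several others, at 0.740 with PUS7L, 0.704 with ALG10 and 0.635 with LINC02693. Among other genes with a mean of at least 1 CPM, those most like PUS7L were ZNF501 (r = 0.976), ZNF717 (0.968) and USP51 (0.961). For TYW3 they were LRRC34 (0.952), USP51 (0.949) and ZNF826P (0.925), and for CRYZ EDA2R (0.969), PCDHGC3 (0.962) and ZNF717 (0.948). For ALG10 they were ZNF717 (0.986), ZNF501 (0.986) and PCDHGC3 (0.965), and for D21S2088E ZNF542P (0.981), KLF8 (0.972) and ZNF772 (0.971). For LINC02693 they were PCDHGC3 (0.9498), ZNF737 (0.949) and MAGEH1 (0.947), and for LINC01515 ZNF788P (0.956), NEK9 (0.879) and ZNF732 (0.877).

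At the edge of the choice, the lowest member at day 0 was LINC01515, at 9.38 ± 1.79 normalised CPM in KO (SD, n = 4). Of the other genes with a symbol, 3 reached that mean in KO or HET with at most 3 counts in each WT day 0 library, and the 3 lie on the X chromosome and so outside an autosomal group. USP51 averaged 20.04 in KO and 20.3 in HET, MAGEH1 13.2 and 12.4, and MAGEE1 11.2 in KO with 0 in HET.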

How the data were processed

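RNA-seq was measured in 36 libraries. Per the submitters' processing notes the authors used GRCh38 with cutadapt 4.8, FastQC 0.11.8, MultiQC 1.20, STAR 2.7.8a and RSEM 1.3.3. The annotation and strand setting are not given in the sources used here. The deposited expected counts were whole numbers, with 1 value per gene and library. The deposited TPM and the deposited FPKM are scaled per transcript length and library by the authors.

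Counts were tested with edgeR 4.0.16 in R 4.3.3 (TMM, filterByExpr, glmQLFit and glmQLFTest, Benjamini-Hochberg adjustment over all genes tested, threshold 0.05). The 12 libraries of a day, or of a genotype for day 7 against day 3, were fitted together, and the interaction used all 36. A reporter construct's 4 rows, at most 0.0171% of a library, were left out. SE is the log2 value divided by the square root of F. Folds against 0 counts use 3 counts per WT library, and intervals are exact at 95% and cover counting error only. Alternatives were size factors of DESeq2 1.42.0 or library size alone, DESeq2's Wald test, limma 3.58.1 on log2(TPM + 1) and log2(TPM + 0.1), no filter, a replicate block, ALG10 summed with ALG10B, and leaving out each library. The edgeR steps were run on simulated counts with 200 genes changed by 2 on the log2 scale. For KO against WT at day 3 they recovered 89.5% of these, with 7.25% false among calls. For day 7 against day 3 in KO the values were 95.5% and 4.98%, and for the interaction 81% and 2.99%. Each changed gene was expressed to begin with, so a gene switched on from 0 counts was not simulated.

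Named genes are the 7 members, RAI1 and NEUROG2, up to 3 called genes of each function list by smallest adjusted p, each neighbour called on any day, the 3 genes most like each member, and genes just outside the choice; IRAK4 and ALG10B are shown as partners, and TWF1 was named after its values were seen. The members and lists were chosen with earlier results of these data known. GENCODE 29 matched 58274 of 62710 gene IDs (92.9%), and start regions and promoters are from RefSeq and GENCODE on GRCh38. Replicate numbers are in the labels with no shared day stated. Same-numbered libraries deviated together, with every correlation over 0.1, between KO and WT at day 0 (0.290 to 0.695) and day 3 (0.128 to 0.588) and between HET and WT at day 3 (0.165 to 0.796). Of the 4 libraries, 4, 3 and 2 in turn correlated best with their own number. Each other comparison held a correlation under 0.1, such as -0.084 between KO and HET at day 3.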

Additional observations from a re-analysis of the deposited data

Results flagged for a closer look

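Over the members and the 9 genotype and day groups, 46 sets of 4 libraries had a library above 3 counts, and 2 of them held a library whose gap to the nearest of the others took up most of the group's range, where chance gives about 2.3 (1 in 20). Both flags fell on HET day 7 replicate 1. ALG10 was at 10.2 normalised CPM there and at 16.03 to 16.9 in the other 3 libraries of the group. LINC02693 was at 35.3 there and at 20.1 to 20.3 in the others. In that library 27.5% of counts came from the 5 small structural RNAs, against 2.84 to 13.4% in the others of the group, and the part of that share in the 2 values was not tested.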

How the results depend on the processing

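Of 1080 gene values recomputed under the alternatives, 1028 kept their direction and their side of the threshold, and 186 of 199 counts stayed within 1.5 times. Limma on log2(TPM + 1) called 2 members in HET against WT at day 3 (main 7). With pseudocounts 1 and 0.1 alike it called 0 between KO and HET at day 3 (main 2), 2 from day 3 to day 7 in HET (main 4) and 1 in WT (main 0); the cause was not tested. On TPM the median log2 of all genes moved by over 0.1 in the 6 genotype comparisons of days 3 and 7, by -0.19 to 0.45 with a pseudocount of 1 and by -0.31 to 0.74 with 0.1. Library size alone gave 1 function-list gene between KO and HET at day 3 (main 0), 7 between KO and WT (main 11) and 2 between HET and WT at day 7 (main 1). Leaving out 1 library gave 1 to 2 calls between KO and HET at day 3, 0 to 1 at day 7, 5 to 7 from day 3 to day 7 in KO, 4 to 5 in HET, and 0 to 1 for the interaction.

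Values that changed sign were never called. Between KO and HET, ALG10 at day 3 ran from -0.10 to 0.24 without 1 library, PUS7L at day 7 from -0.47 to 0.10, and LINC01515 at day 7 from -0.34 to 0.39. LINC01515 in limma was 0.0885 and 0.11 between KO and HET at day 3, -0.0248 and -0.10 at day 7, and -0.11 and -0.21 for the interaction (-0.20 to 0.54 without 1 library). From day 3 to day 7 in HET, PUS7L was -0.15 in limma at 0.1 and -0.11 to 0.44 without 1 library, and ALG10 was 0.26 and 0.28 in limma, 0.23 summed with ALG10B, and -0.11 to 0.11 without 1 library. With the replicate block, PUS7L between KO and HET at day 7 was 0.00024, and the block changed no other sign and no member's call, while calls over all genes at day 3 went from 4649 to 8137 (KO against WT), 708 to 1895 (HET against WT) and 937 to 2739 (KO against HET).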
